A study of Homo sapiens with 36 samples.

Results

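The methionine cycle, methionine salvage and transsulfuration genes described here are MAT2A, MAT2B, AHCY, AHCYL1, MTR, MTRR, CBS, CTH, MTAP and AMD1, 10 of the 57820 genes counted. They were chosen by name for their place in these pathways, with earlier results of these data known, and each matched 1 gene identifier. RNA-seq was performed on A2780 ovarian cancer cells and on a pair of lines derived from them. The wt cells are sensitive to platinum drugs, the cis cells are a resistant line obtained by long exposure to cisplatin, and the cis SSP cells grew out of cis cells kept without serine and glycine and regained activity of the serine synthesis pathway. Each line received medium with serine and glycine (complete medium) or lacking both (-SG), with or without carboplatin (carbo), a platinum drug that crosslinks DNA, which gave 12 conditions with 3 libraries in each. The labels write the carboplatin concentration as 6 M, where the study's methods have µM, and they give no duration of either treatment. Each line is a single cell line, so neither platinum resistance nor regained serine synthesis can be told apart from other differences that arose in culture. The 3 libraries per condition are technical replicates in the study's wording, and the standard errors and p-values measure only the spread between these libraries.

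The methionine cycle turns methionine into S-adenosylmethionine (SAM), the donor of most cellular methyl groups, and recycles the homocysteine that remains after methylation. Homocysteine is either remethylated to methionine with a one-carbon unit that serine can supply, or condensed with serine in transsulfuration to make cysteine, a building block of glutathione. SAM is also spent on polyamines, and the salvage pathway recovers methionine from the by-product of that synthesis. MAT2A is the catalytic subunit of the SAM synthetase of most tissues and MAT2B its regulatory subunit. AHCY hydrolyses S-adenosylhomocysteine, while AHCYL1 resembles AHCY in sequence and is known as a partner of inositol trisphosphate receptors. MTR is the cobalamin-dependent methionine synthase and MTRR reactivates it. CBS and CTH carry out the successive steps of transsulfuration, MTAP starts methionine salvage, and AMD1 decarboxylates SAM for polyamine synthesis.

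The libraries held 13074937 to 20441582 counts on genes, and the members had between 45 and 30410 counts in a library, CTH being the lowest of them. Levels are given as CPM, the counts of a gene relative to the scaled library total, scaled over the 36 libraries, whereas each log2 fold change was fitted on the scaling of its own comparison. The log2 ratios of mean CPM differed from the fitted values by a median of -0.09 for carboplatin in cis -SG cells and by -0.03 to 0.03 in the other 11 comparisons of a pair of conditions. Library 25 (cis SSP) and library 32 (cis SSP -SG) stood apart from the others of their conditions. The Spearman correlation over 10616 genes between a library's deviation from its condition and transcript length was -0.74 in library 25 and -0.73 in library 32, and library 11 (wt -SG carbo) had a value of -0.70. The SD of the deviations on the log2 scale was 0.68, 0.70 and 0.29 in these libraries. MTR, which has the longest transcript of the members, had 92.3 CPM in library 25 against 208 and 198 CPM in the other cis SSP libraries, and 90.3 CPM in library 32 against 217 and 214 CPM in the other cis SSP -SG libraries. Counts of members called in comparisons that hold these libraries are therefore also given without them. Levels, correlations and results on other genes are given with all libraries. Libraries 23 and 24 (cis -SG carbo) had 17.9% and 14.9% of their reads on no gene, against at most 9.31% elsewhere. Of the markers of ovarian cancer cells, PAX8, EMX2, WT1 and EPCAM stayed at or below 2.26 CPM in every library, and KRT8 reached 6.45 CPM. The leukocyte marker PTPRC was at 0 in 31 of the 36 libraries. Other markers moved with the line: in complete medium without drug, PAX2 was at 164 to 167 CPM in wt cells and at 0 in the 3 cis libraries, KRT18 rose from at most 0.73 CPM in wt to at least 15.9 CPM in cis cells, COL1A1 fell from at least 161 to at most 4.65 CPM, and COL3A1 rose from at most 1453 to at least 3554 CPM. In cis SSP cells PAX2 stayed at or below 0.14 CPM, COL1A1 was at 14.6 to 19.5 CPM and KRT18 at 7.24 to 13.7 CPM. Some markers also moved with treatment within a line. COL1A1 in wt cells went from 161 to 165 CPM without drug to 851 to 858 CPM with carboplatin. In cis cells deprivation took COL3A1 from 3554 to 3660 CPM to 796 to 829 CPM, and KRT18 from 15.9 to 18.8 CPM to 41.5 to 44.1 CPM. PAX2 stayed between 164 and 204 CPM in all wt conditions. Marker differences thus accompany comparisons of lines and of treatments below, and their part in the results on the members was not tested.

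The promoter sequences of CTH and MAT2A are shown because each of these genes responded to deprivation in a different line and each has a single start in the RefSeq table used. They are the 250 bases before the start on GRCh38.p14, plus strand, with capitals marking the CCAAT box and the GC box (GGGCGG) on either strand.
CTH, chr1:70411018-70411267: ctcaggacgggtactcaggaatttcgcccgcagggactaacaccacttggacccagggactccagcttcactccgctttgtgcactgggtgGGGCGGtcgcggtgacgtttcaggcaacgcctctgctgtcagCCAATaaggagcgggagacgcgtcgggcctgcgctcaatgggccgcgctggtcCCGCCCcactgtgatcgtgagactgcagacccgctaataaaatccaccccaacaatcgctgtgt
MAT2A, chr2:85538918-85539167: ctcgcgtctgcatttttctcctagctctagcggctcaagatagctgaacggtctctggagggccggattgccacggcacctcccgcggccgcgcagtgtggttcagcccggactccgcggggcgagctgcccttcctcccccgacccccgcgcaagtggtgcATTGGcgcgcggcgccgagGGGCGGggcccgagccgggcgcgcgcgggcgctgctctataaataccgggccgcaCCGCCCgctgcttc
The CTH window was 61.6% G and C and the MAT2A window 71.6%, against a median of 58% over all 35116 windows. CCAAT occurred in 32.01% and GGGCGG in 42.6% of all windows. The members other than MTRR had 19 windows in the table. All motifs were searched on both strands. None of the 19 held TGATGNAA, the core of elements bound by ATF and C/EBP factors, which 3.14% of all windows held, or the E-box CACGTG, which 6.34% held. The cAMP response element TGACGTCA, held by 1.65% of all windows, occurred in 1 of them, from 90 to 83 bases before a start of AHCYL1.

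The level of AHCY spanned the lines most clearly in absolute terms, and CTH in relative terms. Per kilobase of transcript, AHCY was the most abundant member in every condition but wt -SG, reaching 772 CPM per kilobase in cis cells. In wt -SG cells CBS and AHCY were level at 168 and 167 CPM per kilobase. CTH was the least abundant per kilobase in the wt and cis SSP conditions, at 1.8 to 7.6 CPM per kilobase, whereas in the cis conditions, at 16.7 to 20.002 CPM per kilobase, it exceeded MTR and MTAP. Between the lowest and the highest condition mean, CTH changed 10.9-fold, AHCY 5.18-fold and AHCYL1 3.34-fold. AMD1 changed least, at 1.83-fold, and CBS changed 1.85-fold. Ordered by mean CPM, the 4 cis conditions were the highest 4 for both AHCY and CTH. For CTH, the next was wt -SG at 15.9 CPM, which did not overlap with wt below it or cis carbo above it, while the 5 lowest conditions, from cis SSP carbo up to cis SSP, each overlapped with the next in the order. For AHCY, the 4 cis SSP conditions followed at 617 to 666 CPM, each overlapping with the next, and the 4 wt conditions were lowest at 320 to 360 CPM.

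**Figure D1:**
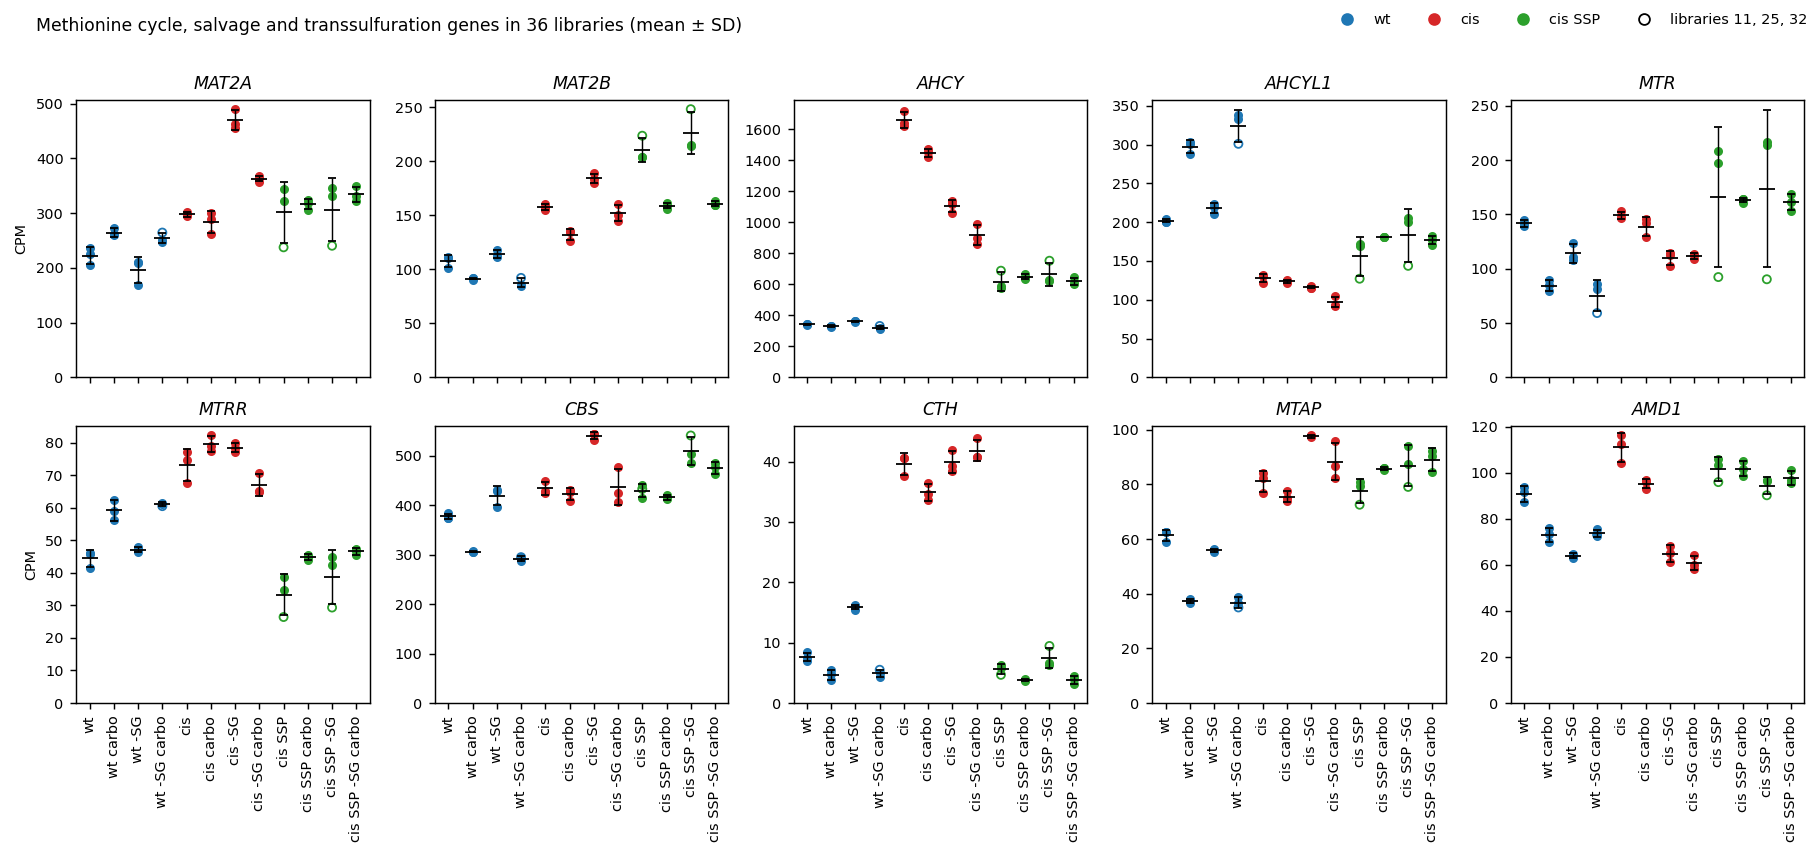
Level of each member in CPM (y axis) in the 12 conditions (x axis); points are single libraries, coloured by line, bars are the mean ± SD of 3 libraries, and open circles are libraries 11, 25 and 32. AHCY and CTH are highest in the 4 cis conditions, and the open circles of MTR in cis SSP and cis SSP -SG, at 92.3 and 90.3 CPM, lie far below the other libraries of those conditions.

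The first comparison asks how the platinum-resistant line differs from the sensitive one in complete medium without drug. CTH and AHCY were about 5 times higher in cis than in wt cells, AHCYL1 was lower, and most other members were moderately higher. Of the 10 members, 9 were called (8 higher and 1 lower), in a comparison that called 78.5% of all genes tested, 39.4% higher and 39.1% lower. The median log2 fold change of the members was 0.38, against 0.00 over all genes.

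In transsulfuration, CTH stood at 7.03, 8.43 and 7.45 CPM in wt cells and at 40.7, 37.6 and 40.7 CPM in cis cells. In bulk libraries such as these, more cells with the transcript and more transcript per cell cannot be told apart. The groups were far apart, with a log2 fold change of 2.34 (SE 0.07, adjusted p = 2.40e-30), or 5.06-fold. CBS, which makes the cystathionine that CTH cleaves, was at 375, 374 and 384 CPM in wt and 429, 448 and 424 CPM in cis cells. Its rise was small, with a log2 fold change of 0.17 (SE 0.02, adjusted p = 5.21e-08). In the methylation cycle, AHCY had 342, 341 and 339 CPM in wt and 1621, 1640 and 1715 CPM in cis cells. This was a 4.76-fold rise (log2 fold change 2.25, SE 0.02, adjusted p = 1.51e-48). AHCYL1 went the other way, from 201, 201 and 204 CPM in wt to 122, 131 and 132 CPM in cis cells. It was the only member that was lower in cis cells, at a log2 fold change of -0.69 (SE 0.03, adjusted p = 6.21e-25).

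MAT2A rose from 226, 206 and 236 CPM in wt to 297, 303 and 294 CPM in cis cells (log2 fold change 0.39, SE 0.05, adjusted p = 0.000162). Its regulatory partner MAT2B rose alongside, from 111, 112 and 101 CPM to 155, 156 and 161 CPM (log2 fold change 0.51, SE 0.03, adjusted p = 7.32e-19). The members of remethylation differed from each other. MTRR rose 1.61-fold, from 45.9, 46.1 and 41.4 CPM to 74.8, 67.8 and 77.1 CPM (adjusted p = 1.97e-15). MTR, the enzyme that MTRR reactivates, had a log2 fold change of 0.04 (SE 0.03) that did not pass the test (adjusted p = 0.226). MTAP rose with a log2 fold change of 0.37 (SE 0.04, adjusted p = 3.91e-11) and AMD1 with one of 0.26 (SE 0.04, adjusted p = 4.90e-08). The counting of MAT2A and MTRR carries an uncertainty, because 562 exonic bases of MAT2A overlap GGCX and 100 exonic bases of MTRR overlap FASTKD3 on the opposite strand, and the strand setting of the counting is not given in the sources used here. GGCX had 26.3% as many counts as MAT2A and FASTKD3 23.3% as many as MTRR. GGCX fell in cis cells, by 0.35 on the log2 scale (adjusted p = 5.10e-11), while FASTKD3 rose by 0.91 (adjusted p = 3.80e-14).

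The cis SSP cells, which regained serine synthesis, were compared with the cis cells they grew out of. Regained synthesis and any other difference that arose as they grew out cannot be told apart. In complete medium CTH, AHCY and MTRR were lower in cis SSP than in cis cells and MAT2B was higher. These 4 of the 10 members were called, where 29.1% of all genes tested were (15.8% higher and 13.3% lower). CTH fell from 40.7, 37.6 and 40.7 CPM in cis to 4.67, 6.22 and 5.87 CPM in cis SSP cells. The log2 fold change was -2.79 (SE 0.14, adjusted p = 9.93e-05), a 6.94-fold decrease to a level below that of wt cells. AHCY fell from 1621, 1640 and 1715 CPM to 687, 577 and 587 CPM, a 2.65-fold decrease (log2 fold change -1.40, SE 0.11, adjusted p = 0.000413), and stayed above the 339 to 342 CPM of wt cells. MTRR had 26.4, 34.8 and 38.8 CPM in cis SSP cells, 2.15-fold lower than in cis cells (adjusted p = 0.00442). Of these, only CTH and MTRR were lower on average in cis SSP than in wt cells, which was not tested.

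MAT2B was at 224, 204 and 204 CPM in cis SSP cells, higher than in cis cells by 0.44 on the log2 scale (SE 0.09, adjusted p = 0.0140). CBS differed little between these lines, with 433, 415 and 442 CPM in cis SSP cells and a log2 fold change of 0.01 (SE 0.09, adjusted p = 0.947). MAT2A, MTAP and AMD1 had log2 fold changes of 0.04, -0.04 and -0.10 that did not pass the test. Library 25 had the lowest level of MAT2A, AHCYL1, MTR, MTRR, CTH, MTAP and AMD1 and the highest of MAT2B and AHCY among the cis SSP libraries. Without it 7 of the 10 members were called, where that fit called 65.4% of all genes tested (32.9% higher and 32.5% lower). The additional ones were MAT2A (log2 fold change 0.20, adjusted p = 8.51e-07), AHCYL1 (0.45, adjusted p = 4.90e-13) and MTR (0.49, adjusted p = 2.91e-14), all higher in cis SSP cells. Without any 1 of the cis libraries 3 members were called, MAT2B being lost, and such fits called 14.3% to 14.6% of all genes.

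When both lines lacked serine and glycine, 6 members differed between cis SSP and cis cells, where 44.8% of all genes tested were called (21.6% higher and 23.2% lower). CTH remained lower in cis SSP cells (log2 fold change -2.43, SE 0.18, adjusted p = 0.000219), as did AHCY (-0.74, SE 0.12, adjusted p = 0.00333) and MTRR (-1.02, SE 0.17, adjusted p = 0.00447). MAT2A was also lower, at 332, 240 and 346 CPM in cis SSP -SG against 455, 463 and 490 CPM in cis -SG cells (log2 fold change -0.62, adjusted p = 0.0209). AMD1 was higher in cis SSP cells, at 96.5, 90.2 and 96.6 CPM against 61.1, 64.9 and 68.3 CPM (log2 fold change 0.54, adjusted p = 0.00516), and so was AHCYL1 (0.65, adjusted p = 0.0164). Without library 32 all 10 members were called, in a fit that called 75.5% of all genes tested, and MTR then showed a log2 fold change of 0.96 (adjusted p = 3.61e-25). Without any 1 of the cis -SG libraries 4 members were called, MAT2A and AHCYL1 being lost, and such fits called 27.4% to 28.2% of all genes.

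Serine can supply carbon for remethylation and is the partner of homocysteine in transsulfuration. Withdrawal removes it from the medium, but not the serine that cells synthesise. The lines differed in which members responded. AMD1 and MTR fell in both wt and cis cells. In wt cells the largest change was a rise of CTH. In cis cells MAT2A rose and AHCY fell. In cis SSP cells no member was called, in a fit with libraries 25 and 32 that called 0.0218% of all genes tested. Without these libraries 6 members were called, where 35.9% of all genes tested were.

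In wt cells 8 members were called (5 higher and 3 lower), where 49.2% of all genes tested were (24.1% higher and 25.1% lower). CTH rose from 7.03, 8.43 and 7.45 CPM to 16.001, 16.3 and 15.5 CPM, 2.10-fold (log2 fold change 1.07, SE 0.09, adjusted p = 2.15e-09). AMD1 fell from 91.5, 93.7 and 87.1 CPM to 64.9, 63.9 and 62.7 CPM (log2 fold change -0.49, adjusted p = 1.19e-09), and MTR fell from 139, 145 and 141 CPM to 108, 124 and 111 CPM (-0.30, adjusted p = 5.64e-05). The other calls in wt cells were below 0.2 on the log2 scale: CBS (0.16), AHCYL1 (0.12), MAT2B (0.10) and AHCY (0.09) rose and MTAP fell (-0.12). MAT2A had 208, 168 and 211 CPM, which overlapped with wt cells in complete medium, and did not pass the test (log2 fold change -0.17, SE 0.12, adjusted p = 0.308).

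In cis cells 9 members were called (5 higher and 4 lower), where 75% of all genes tested were (37.6% higher and 37.4% lower). MAT2A rose from 297, 303 and 294 CPM to 455, 463 and 490 CPM, its highest mean level in any condition (log2 fold change 0.68, SE 0.03, adjusted p = 4.13e-25). GGCX, on the opposite strand, rose by 0.19 (SE 0.04, adjusted p = 5.94e-05). CBS also reached its highest mean level, with 532, 544 and 545 CPM (log2 fold change 0.34, adjusted p = 2.75e-15), and MTAP rose to 97.2, 97.5 and 98.2 CPM (0.30, adjusted p = 3.17e-09). MAT2B rose by 0.25 (adjusted p = 6.99e-10) and MTRR by 0.13 (adjusted p = 0.00647). AMD1 fell from 112, 104 and 116 CPM to 61.1, 64.9 and 68.3 CPM (log2 fold change -0.75, SE 0.04, adjusted p = 8.20e-17). AHCY fell from 1621, 1640 and 1715 CPM to 1058, 1138 and 1114 CPM (log2 fold change -0.56, SE 0.03, adjusted p = 2.00e-22), still above every wt and cis SSP library. MTR fell as in wt cells (-0.41, adjusted p = 1.87e-13), and AHCYL1 fell slightly (-0.12, adjusted p = 0.00187). CTH, at 42.0, 38.4 and 39.3 CPM, overlapped with its level in complete medium (log2 fold change 0.04, SE 0.05, adjusted p = 0.5003).

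The interaction term, which tests whether the responses of the lines differ, called 8 members between cis and wt cells, where 54% of all genes tested were called (27.1% higher and 26.9% lower). The response of MAT2A was higher in cis than in wt cells by 0.87 on the log2 scale (SE 0.12, adjusted p = 0.000319). That of CTH was lower in cis cells by a difference of -1.02 (SE 0.10, adjusted p = 4.28e-11) and that of AHCY by one of -0.64 (SE 0.04, adjusted p = 9.69e-18). For MTR, which fell in both lines, the difference was -0.10 (SE 0.06, adjusted p = 0.215).

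In cis SSP cells no member was called by edgeR with all 6 libraries, none had an unadjusted p under 0.05, and DESeq2 called none. Only 0.0218% of all genes tested were called in this comparison, which held both library 25 and library 32. Without these 2 libraries 6 members were called (5 higher and 1 lower), where that fit called 35.9% of all genes tested (18.9% higher and 17% lower). AHCYL1 (log2 fold change 0.24), MTRR (0.23), CBS (0.20), MTAP (0.17) and AHCY (0.09) rose and AMD1 fell (-0.12). MAT2A then had a log2 fold change of 0.02 (SE 0.03, adjusted p = 0.726) and CTH one of 0.09 (SE 0.14, adjusted p = 0.654). Against cis cells, the response differed for AHCY (difference 0.67, SE 0.16, adjusted p = 0.0160) and AMD1 (0.65, SE 0.11, adjusted p = 0.00300), 2 of the 10 members where 17.1% of all genes tested were called (6.86% higher). Scaling by total counts moved the median of all genes by -0.11 in this interaction. Without the 2 libraries 7 members were called, in a fit that called 55.4% of all genes tested, and the differences were 0.65 for AHCY (adjusted p = 7.47e-18), 0.62 for AMD1 (adjusted p = 2.64e-11) and -0.67 for MAT2A (adjusted p = 7.98e-16).

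**Figure D2:**
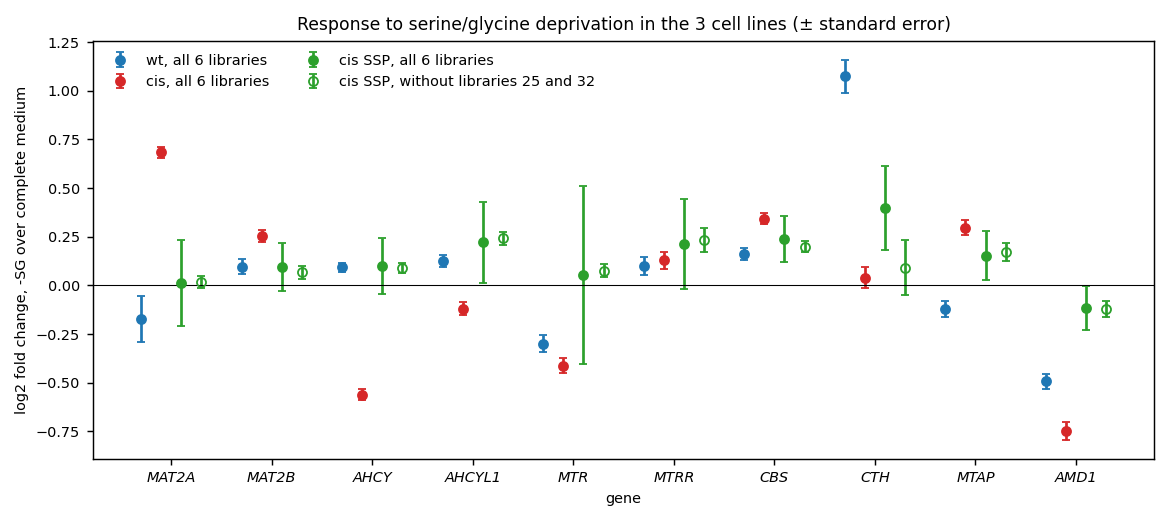
Log2 fold change of each member on serine and glycine deprivation (y axis) in wt, cis and cis SSP cells, with bars of ± 1 standard error; open green circles leave out libraries 25 and 32. CTH moved in wt cells (1.07) and MAT2A in cis cells (0.68), and the open circles of cis SSP cells lie between -0.12 and 0.24.

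Carboplatin was compared with no drug within each line and medium. In wt cells in complete medium MTR, MTAP and CTH fell 1.61-fold to 1.66-fold and AHCYL1 rose 1.49-fold, whereas in cis cells in complete medium no call exceeded 0.22 on the log2 scale. In wt cells 9 members were called (3 higher and 6 lower), where 77.8% of all genes tested were (38.9% higher and 39% lower). MTR fell from 139, 145 and 141 CPM to 89.5, 84.7 and 79.2 CPM (log2 fold change -0.73, SE 0.03, adjusted p = 7.66e-97). MTAP fell from 62.4, 62.5 and 59.0 CPM to 38.0, 37.8 and 36.6 CPM (log2 fold change -0.69, SE 0.04, adjusted p = 1.61e-48). CTH fell to 4.82, 5.43 and 3.78 CPM (-0.69, SE 0.12, adjusted p = 2.08e-08), AMD1 to 75.9, 69.8 and 73.2 CPM (-0.30), CBS to 308, 306 and 305 CPM (-0.28) and MAT2B to 92.1, 92.0 and 90.5 CPM (-0.22). AHCYL1 rose from 201, 201 and 204 CPM to 303, 288 and 301 CPM (log2 fold change 0.58, SE 0.02, adjusted p = 1.39e-105). MTRR rose by 0.44 (SE 0.04, adjusted p = 1.08e-22), opposite to MTR, and MAT2A rose by 0.27 (SE 0.06, adjusted p = 0.0155), while its opposite-strand neighbour GGCX rose by 0.32 (SE 0.03). Without library 4 or library 5 (wt carbo) MAT2A was not called, in fits that called 74.7% and 74.9% of all genes tested. AHCY, at 326, 334 and 332 CPM, did not pass the test (log2 fold change -0.03, adjusted p = 0.217).

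In wt cells without serine and glycine all 10 members were called on carboplatin (4 higher and 6 lower), where 68.9% of all genes tested were (34.3% higher and 34.6% lower). CTH fell from 16.001, 16.3 and 15.5 CPM to 4.32, 5.51 and 4.89 CPM, a 3.17-fold decrease (log2 fold change -1.66, SE 0.10, adjusted p = 6.00e-07). These levels overlapped with those of CTH under carboplatin in complete medium. AMD1, which carboplatin lowered in complete medium, rose here from 64.9, 63.9 and 62.7 CPM to 72.6, 73.0 and 75.4 CPM (log2 fold change 0.24, adjusted p = 0.00253). Leaving out any 1 of the 6 libraries gave 9 members called, in fits that called 63% to 73.3% of all genes tested. Without library 11 (73.3% of all genes) the member lost was MAT2A (log2 fold change 0.38, adjusted p = 0.0559), and without any 1 of the other 5 it was AHCY.

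In cis cells carboplatin changed 5 members (1 higher and 4 lower), where 20.1% of all genes tested were called (9.27% higher and 10.8% lower). The calls were MAT2B (log2 fold change -0.22), AMD1 (-0.19), AHCY (-0.17) and CTH (-0.15), which fell, and MTRR (0.15), which rose. AHCY moved from 1621, 1640 and 1715 CPM to 1471, 1421 and 1449 CPM (adjusted p = 1.21e-05), and CTH to 34.6, 33.7 and 36.5 CPM (adjusted p = 0.0469). DESeq2 called 3 members in this comparison, as did edgeR without library 18 (cis carbo), where 12.8% of all genes were called. CTH was not called when any 1 of libraries 13, 15, 16, 17 and 18 was left out. In cis -SG cells 7 members were called (1 higher and 6 lower), where 22.5% of all genes tested were (10.9% higher and 11.6% lower). MAT2A fell from 455, 463 and 490 CPM to 367, 365 and 357 CPM (log2 fold change -0.28, SE 0.04, adjusted p = 0.000267), which left it above its level in cis cells in complete medium. CBS fell by 0.22 (adjusted p = 0.000207), MAT2B by 0.19 and AHCY by 0.18, and CTH rose by 0.16 (adjusted p = 0.0406). Without libraries 23 and 24, which leaves 1 treated library that is assumed to vary like the untreated ones, MAT2A, MAT2B, AHCY and CBS were called, all lower, in a fit that called 14.5% of all genes tested (6.91% lower). CTH was then not called (log2 fold change 0.15, adjusted p = 0.150).

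In complete medium, the interaction term called 8 members between the responses of cis and wt cells to carboplatin (4 higher and 4 lower), where 57.6% of all genes tested were called (30.3% higher and 27.2% lower). The differences were 0.66 for MTR (SE 0.06, adjusted p = 1.59e-09), 0.63 for MTAP (SE 0.06, adjusted p = 4.95e-14), 0.54 for CTH (SE 0.13, adjusted p = 0.000284) and -0.60 for AHCYL1 (SE 0.04, adjusted p = 2.65e-19). MAT2B, which fell by 0.22 in both lines, had a difference of 0.00 (SE 0.05, adjusted p = 0.976).

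In cis SSP cells edgeR called no member on carboplatin in complete medium, where 2.72% of all genes tested were called (1.97% higher and 0.749% lower). Here 3 members had an unadjusted p under 0.05 and DESeq2 called 1. CTH was at 3.95, 3.72 and 3.86 CPM with carboplatin, all below the 4.67 to 6.22 CPM without it (log2 fold change -0.55, SE 0.15, adjusted p = 0.134). Without library 25, 7 members were called, where that fit called 41.2% of all genes tested (21.9% higher and 19.2% lower). Among them were CTH (-0.65, adjusted p = 0.000468), MAT2B (-0.36, adjusted p = 9.24e-11) and MTR (-0.32, adjusted p = 4.43e-09), which fell, and MTRR (0.28, adjusted p = 0.000158) and AHCY (0.15, adjusted p = 3.81e-06), which rose. In cis SSP -SG cells edgeR called no member either, where 1.47% of all genes tested were called (1.17% higher and 0.295% lower), with 2 members at an unadjusted p under 0.05 and 2 called by DESeq2. Without library 32, 4 members were called, where that fit called 41.1% of all genes tested (21.1% higher and 19.9% lower). All 4 were lower with carboplatin: CTH (-0.71), MAT2B (-0.40), MTR (-0.40) and AHCYL1 (-0.18). The comparisons of a line with deprivation and with carboplatin share their untreated libraries.

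The neighbouring steps of these pathways were counted by lists of 11 genes of methionine salvage and polyamines, 9 of remethylation and cobalamin handling, 8 of SAM formation and use and 8 of cysteine breakdown and sulfide. Between cis and wt cells 10 of the 11 salvage and polyamine genes were called (8 higher and 2 lower), 6 of the 7 cobalamin genes tested (3 and 3), all 6 SAM genes tested (2 and 4) and 7 of the 8 cysteine genes (4 and 3), where 78.5% of all genes tested were called. Their median log2 fold changes were 0.36, -0.06, -0.21 and 0.14, against 0.00 over all genes. Between cis SSP and cis cells 4 of 11 salvage and polyamine genes (1 higher and 3 lower), 1 of 6 cobalamin genes (higher), none of 5 SAM genes (2 at an unadjusted p under 0.05) and 5 of 8 cysteine genes (4 and 1) were called, where 29.1% of all genes tested were (15.8% higher and 13.3% lower). Deprivation of cis cells called 9 of 11 salvage and polyamine genes (4 and 5), 5 of 6 cobalamin genes (1 and 4), all 5 SAM genes tested (2 and 3) and 6 of 8 cysteine genes (3 and 3), where 75% of all genes tested were called. Carboplatin in wt cells called all 11 salvage and polyamine genes (6 and 5), 4 of 7 cobalamin genes (1 and 3), 5 of 6 SAM genes, all lower, and 4 of 7 cysteine genes (1 and 3), where 77.8% of all genes tested were called (39% lower). MAT1A, the liver form of the catalytic subunit of SAM synthetase, was at 7.32 to 8.25 CPM in wt cells and at 0.27 CPM or less in cis cells, where libraries held 1 to 5 counts. CDO1, which oxidises cysteine, followed CTH across the lines, with a mean of 5.32 CPM in wt, 14.3 CPM in cis and 1.72 CPM in cis SSP cells. It was higher in cis than in wt cells (log2 fold change 1.39, SE 0.10, adjusted p = 2.61e-17) and lower in cis SSP than in cis cells (-3.04, SE 0.17, adjusted p = 0.000121). The betaine-dependent alternatives to MTR were near 0, BHMT being at 0 in 28 libraries and BHMT2 in 31, a pair named after their values were seen.

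Downstream of AMD1 are the polyamine catabolic genes SMOX, which encodes spermine oxidase, and SAT1, the spermidine/spermine acetyltransferase. Among the called genes of these lists, they had the largest responses to carboplatin in wt and cis cells in complete medium. In wt cells SMOX rose from 10.3 ± 0.72 CPM to 116 ± 2.52 CPM (SD, n = 3; log2 fold change 3.51, SE 0.05) and SAT1 from 7.94 ± 0.22 CPM to 55.5 ± 2.77 CPM (2.82, SE 0.06). In cis cells SMOX rose by 0.90 (SE 0.05, adjusted p = 1.26e-13) and SAT1 by 0.35 (SE 0.06, adjusted p = 8.94e-05), and the responses differed between these lines by -2.60 for SMOX and -2.47 for SAT1 (adjusted p = 1.04e-36 and 6.37e-32). In cis SSP cells SMOX rose by 1.49 (SE 0.14, adjusted p = 0.00890), the only gene of these lists called there, where 2.72% of all genes tested were called. Both also rose on deprivation in wt and cis cells: SMOX by 0.70 in wt cells (adjusted p = 3.61e-07) and by 1.33 in cis cells (adjusted p = 1.28e-27), and SAT1 by 0.60 (adjusted p = 8.15e-06) and 1.05 (adjusted p = 9.06e-23). In deprived cis SSP cells neither was called. SMOX was there at 21.7 to 30.6 CPM, against 13.1 to 17.6 CPM in complete medium, while SAT1 overlapped between the media. On the sulfur side, SUOX, the sulfite oxidase, fell in deprived cis cells from 30.1 ± 2.66 to 11.6 ± 0.45 CPM (log2 fold change -1.35, adjusted p = 3.22e-21), and its response differed from that of wt cells by -0.99 (adjusted p = 1.19e-11). GAMT, which spends SAM on creatine synthesis, fell by 1.03 on the log2 scale in deprived cis cells (adjusted p = 1.04e-20).

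The genes around AHCYL1 (chromosome 1, 110527387 to 110566364, GRCh37) were lower with it in cis than in wt cells, which was seen after its values were known. Of the 23 other genes within 1 Mb with a mean of at least 5 CPM, 20 were lower in cis than in wt cells, 19 of them called, where 39.1% of all genes tested were called lower. Their median log2 fold change was -0.79, against -0.69 for AHCYL1 itself. Between cis SSP and cis cells 21 of the 23 were higher, 17 of them called, where 15.8% of all genes were called higher, with a median of 0.91. AHCYL1 itself had a log2 fold change of 0.31 there that did not pass the test (adjusted p = 0.164). Around AHCY (chromosome 20, 32868074 to 32899608) 16 of 23 genes were higher in cis than in wt cells, 15 of them called, where 39.4% of all genes were called higher, with a median of 0.42 against 2.25 for AHCY. Between cis SSP and cis cells 17 of the 23 were lower, 5 of them called, where 13.3% of all genes were called lower, with a median of -0.17 against -1.40 for AHCY. Around CTH (chromosome 1, 70876901 to 70905534) 4 of 7 genes were higher in cis than in wt cells and 3 were lower, all 7 of them called. Of all genes tested, 39.4% were called higher and 39.1% lower. The median of the 7 was 0.43 against 2.34 for CTH. Between cis SSP and cis cells 6 of the 7 were lower, 5 of them called, where 13.3% of all genes were called lower. Their median was -0.64 against -2.79 for CTH. Neighbouring genes are not independent, and no test was made of these counts.

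**Figure D3:**
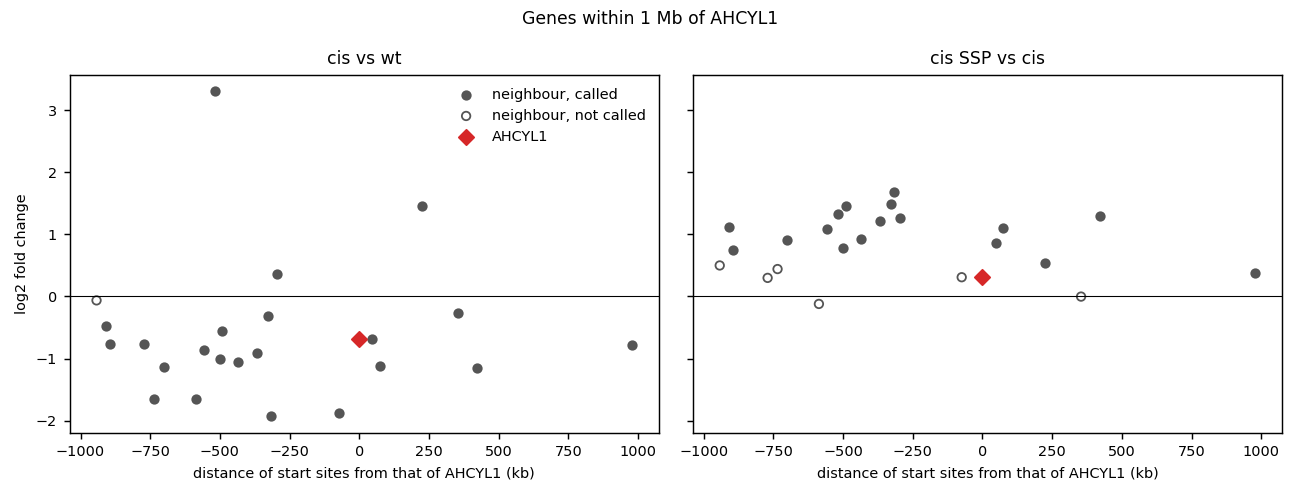
Log2 fold change (y axis) of genes with a mean of at least 5 CPM within 1 Mb of AHCYL1, by distance of their starts from that of AHCYL1 in kb (x axis), for cis vs wt (left) and cis SSP vs cis (right); filled points passed the test, open points did not, and the red diamond is AHCYL1. On the left 20 of 23 neighbours lie below 0, and on the right 21 of 23 lie above 0.

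Across the 12 condition means, the members most alike in log2 CPM were CBS and MTAP (Pearson r = 0.93), and those most opposed were AHCY and AHCYL1 (r = -0.86). These correlations are descriptions over conditions that share lines and treatments. Among 10753 genes, the closest pattern to that of AHCY was ANKRD34B (r = 0.99), to that of CTH DIAPH2 (r = 0.98), to that of MAT2A DGCR8 (r = 0.99) and to that of AHCYL1 LOXL2 (r = 0.99). VPS16 came second for AHCY (r = 0.99).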

How the data were processed

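RNA-seq of 36 libraries was used, 3 for each of 12 conditions, grouped by the labels of the samples. Per the study's methods, STAR served for alignment (GRCh37.p13) and HTSeq with GENCODE v19 for counting over exons, and the authors deposited raw counts per gene. How multiply aligned reads were treated is not given in the sources used here. A library held 13074937 to 20441582 counts, which sets the sampling noise. The 3 rows that name no gene, among them reads on no feature (4.21% to 17.9% of a library), stayed out. Pairs of libraries of a condition had a mean chi-square of 1.18 to 111 over genes. None was treated as a duplicate, though the lowest values cannot tell separate preparations from repeated sequencing of 1 preparation.

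Symbols and GRCh37 positions came from GENCODE v44 mapped to that build (55538 of 57820 identifiers matched), and transcript length per kilobase from its canonical transcripts. Counts were tested with edgeR 4.0.16 in R 4.3.3 (TMM, filterByExpr, estimateDisp, robust glmQLFit, glmQLFTest), fitted on all genes of the libraries compared. Genes were called at a Benjamini-Hochberg adjusted p under 0.05 over all genes tested. Log2 fold changes are the first-named or treated group over the other, and their standard error is the size of the fold change divided by the square root of F. Differences between responses are interaction terms. The script was tested on simulated data. Alternatives were DESeq2 1.42.0, other scalings and filters, one fit over all libraries, a fold threshold, and leaving out libraries. All 10 members were named, and of each other list at most 2 genes per comparison, the called ones with the largest change and a mean of at least 5 CPM in a group compared. Likeness was searched over genes by Pearson correlation of log2 CPM, and CPM used TMM over the 36 libraries. The members and lists were chosen with earlier results of these data known.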

Additional observations from a re-analysis of the deposited data

Results flagged for a closer look

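The responses of the lines differed by the interaction term of edgeR for the following members, with all adjusted p under 0.05. For carboplatin in complete medium, the log2 fold change in cis minus that in wt cells was 0.66 for MTR, 0.63 for MTAP, 0.54 for CTH and 0.28 for CBS, and -0.60 for AHCYL1, -0.30 for MAT2A, -0.28 for MTRR and -0.14 for AHCY. AHCYL1 rose in wt cells and was not called in cis cells. For serine/glycine deprivation, cis minus wt was 0.87 for MAT2A, 0.43 for MTAP, 0.20 for CBS and 0.17 for MAT2B, and -1.02 for CTH, -0.64 for AHCY, -0.24 for AMD1 and -0.23 for AHCYL1. MTAP and AHCYL1 were called in opposite directions in the lines, as was AHCY. For the same deprivation, cis SSP minus cis was 0.67 for AHCY and 0.65 for AMD1. Leaving out any 1 library did not end the call of AHCY or AMD1 in the last of these.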

How the results depend on the processing

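A call here is an adjusted p under 0.05, and a count of members called is the result compared. Requiring also a log2 fold change of 1 or more in size, members called numbered 2 for cis vs wt, 2 for cis SSP vs cis in -SG, 0 for carboplatin in wt, in cis and in cis -SG, 1 for carboplatin in wt -SG, 1 for -SG in wt and 0 in cis, 0 for the difference of the carboplatin responses, and 1 and 0 for those of the -SG responses (cis minus wt, and cis SSP minus cis). One fit over the 36 libraries called 2 for carboplatin in cis, 3 in cis SSP, 2 in cis -SG and 2 in cis SSP -SG, 3 for -SG in wt and 1 in cis SSP, and 4, 5 and 4 for the differences of responses. DESeq2 called 3, 1 and 2 members for carboplatin in cis, cis SSP and cis SSP -SG, and total counts without TMM called 1 for carboplatin in cis SSP. No share of all genes is given for these settings, so their counts are not read as results about the members. Leaving out 1 library at a time gave 3 to 7 for cis SSP vs cis (14.3% to 65.4% of all genes called). It gave 4 to 10 in -SG (27.4% to 75.5%). For carboplatin in cis it gave 3 to 5 (12.8% to 18.7%). In cis SSP it gave 0 to 7 (0.0636% to 41.2%) and in cis SSP -SG 0 to 4 (0% to 41.1%). For cis SSP vs cis, leaving out library 25 gave the 7 and leaving out 13, 14 or 15 the 3. In -SG, leaving out library 32 gave the 10 and leaving out 19, 20 or 21 the 4. For carboplatin, leaving out library 18 (cis carbo) gave the 3 in cis, library 25 the 7 in cis SSP and library 32 the 4 in cis SSP -SG. MAT2A under carboplatin in cis SSP changed sign without library 25, to -0.078 on the log2 scale (adjusted p = 0.0411), from 0.07, and ranged from -0.078 to 0.165 when any 1 library was left out. Without libraries 23 and 24, 4 members were called for carboplatin in cis -SG. Without libraries 25 and 32, 6 were called for -SG in cis SSP and 7 for its difference from cis. The cause was not tested. With either size factors of DESeq2 in edgeR or a minimum of 10 counts in every library, 149 and 150 of the 150 member results kept their side of the threshold. With DESeq2 138 of them did, and with one fit over the 36 libraries 115. No called result reversed its direction in these settings. No paired analysis was possible because the labels give no replicate numbers within a condition. CTH, with 45 counts in its lowest library, is the member most limited by depth.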
